A study of Mus musculus with 22 samples.

Results

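The endothelial cell genes described here are *Kdr*, *Cdh5*, *Pecam1*, *Tek*, *Tie1*, *Flt1*, *Eng*, *Vwf*, *Emcn* and *Esam*, 10 of the 17931 gene symbols counted in mouse testes, chosen by name because they mark the cells that line blood vessels. All 10 had reads in every library, from 9 counts of *Emcn* in WT2 to 474 counts of *Vwf* in WT3. The study compared whole testes of 3 wild-type (WT) males with those of 3 littermates that constitutively lacked MLX in every tissue (MLX KO), all untreated and aged 7 months, in 3 numbered pairs. Per the paper the WT males had proven fertile as breeders, while males lacking MLX were infertile, so breeding history may have differed with genotype. The KO allele was made in mouse embryonic stem cells and lacks the exons encoding the DNA-binding and dimerization region, which Meox2-Cre removed before the Cre was bred out. MLX is a transcription factor that senses glucose together with its partner MondoA.

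Endothelial cells of the testis line the vessels that run between the seminiferous tubules, and no vessel enters a tubule. VEGF-A, the main growth signal of these cells, acts through the receptor KDR, while FLT1 binds the same ligand tightly and signals weakly. The angiopoietins act through TEK with TIE1 as its partner, endoglin (*Eng*) assists the receptors for BMP9, and VE-cadherin (*Cdh5*), PECAM1 and ESAM hold neighbouring cells together. Some of these genes are not made by endothelium alone, since platelets also make *Vwf*, *Pecam1* and *Esam*, and leukocytes *Pecam1*. Which cells of the whole testis gave the reads of each gene, *Kdr* and *Flt1* included, was not determined.

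The stretches of DNA just before the start sites of the receptor genes *Kdr*, *Tie1* and *Eng* are shown. They were chosen because *Kdr* passed the test and the others did not, but no test compared these genes. Each stretch is 250 bases long, comes from RefSeq on GRCm38.p6 (mm10) and is written 5′ to 3′ in the direction of transcription. Capitals mark GGAA, or its reverse complement TTCC, the core recognised by the ETS factors that drive many endothelial genes.
Kdr, chr5:75978456-75978705, minus strand: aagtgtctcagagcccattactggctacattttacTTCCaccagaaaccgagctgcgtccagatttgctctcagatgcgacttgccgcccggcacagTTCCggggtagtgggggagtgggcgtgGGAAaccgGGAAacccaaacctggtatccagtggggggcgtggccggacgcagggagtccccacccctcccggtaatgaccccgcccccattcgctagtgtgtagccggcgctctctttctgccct
Tie1, chr4:118489850-118490099, minus strand: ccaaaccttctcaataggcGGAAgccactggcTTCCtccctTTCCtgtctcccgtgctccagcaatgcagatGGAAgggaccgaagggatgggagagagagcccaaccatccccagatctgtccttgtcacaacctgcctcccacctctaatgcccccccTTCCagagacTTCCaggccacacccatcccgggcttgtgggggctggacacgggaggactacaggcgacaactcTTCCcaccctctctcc
Eng, chr2:32646345-32646594, plus strand: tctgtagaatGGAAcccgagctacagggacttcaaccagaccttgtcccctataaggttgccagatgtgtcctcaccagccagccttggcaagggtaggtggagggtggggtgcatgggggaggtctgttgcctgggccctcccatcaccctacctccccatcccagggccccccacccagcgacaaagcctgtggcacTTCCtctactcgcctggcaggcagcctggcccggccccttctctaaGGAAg
The *Kdr* stretch lies within an intron of a longer predicted transcript. It holds 4 ETS cores, counting both strands, against 7 before *Tie1* and 3 before *Eng*, and the median over the 32851 stretches of the same length in the table was 3. GGAA was present in 93.4% of all stretches, so its presence does not set these genes apart. The longer form AGGAAG, which contains GGAA, was found 0 times before *Kdr*, 1 time before *Tie1* and 2 times before *Eng*, and in 29.5% of all stretches. *Tek*, *Flt1* and *Emcn*, which did not pass the test either, had AGGAAG 0, 2 and 2 times and GGAA 2, 4 and 4 times. The E-box CACGTG, a sequence bound by MLX with partners of its family, was in 6.02% of all stretches and in 0 of the 6 for endothelial cell genes in the table (*Kdr*, *Tek*, *Tie1*, *Flt1*, *Eng* and *Emcn*). *Cdh5*, *Pecam1*, *Vwf* and *Esam* had no entry.

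The libraries held between 16674678 and 19742726 counts, and *Mlx* itself did not check their labels. The WT libraries had 128, 96 and 98 counts and the KO libraries 94, 109 and 102, a log2 fold change (LFC) of -0.18 (SE 0.14) that did not pass the test (adjusted p = 0.326, edgeR quasi-likelihood, Benjamini-Hochberg). The count covers a retained exon and the gene overlaps *Psmc3ip*, so every direction here rests on the genotype that the labels give each library. Spermatid markers, abundant in testis RNA, fell together: the 8 genes of that list (*Prm1*, *Tnp1* and others) summed to between 20952 and 21910 CPM (counts divided by library sizes that TMM factors adjust) in WT and between 12327 and 15087 in KO. In whole tissue, fewer cells of a type and less RNA per cell cannot be told apart. WT1 and KO1, a pair, stood apart from the other 4 libraries on the second principal component, at 6.71 and 11.9 against values below 0, and calls of the endothelial cell genes are given without them where they changed.

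Of the 10 endothelial cell genes, *Kdr*, *Cdh5* and *Esam* rose in MLX KO testes, none fell, and 7 did not pass an adjusted p of 0.05. Over all 14640 genes tested, 24.8% were higher and 20.6% lower by the same rule, so 3 of 10 is close to the share among all genes. At an unadjusted p under 0.05, edgeR gave 6 of the 10 higher and 0 lower, beside 28.5% of all genes higher and 24.3% lower, and DESeq2 with adjustment also gave 0 lower. The median LFC of the 10 genes was 0.42 (0.53, 0.42 and 0.25 in pairs 1, 2 and 3) beside 0.03 over all genes tested, and 9 of the 10 values were above 0. The 3 KO libraries lay above the 3 WT libraries for 6 genes (*Kdr*, *Cdh5*, *Pecam1*, *Eng*, *Emcn* and *Esam*), below them for *Flt1*, and overlapped them for *Tek*, *Tie1* and *Vwf*. Such separation was common here, in 30.3% of all genes tested upward and 25.9% downward.

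**Figure D1:**
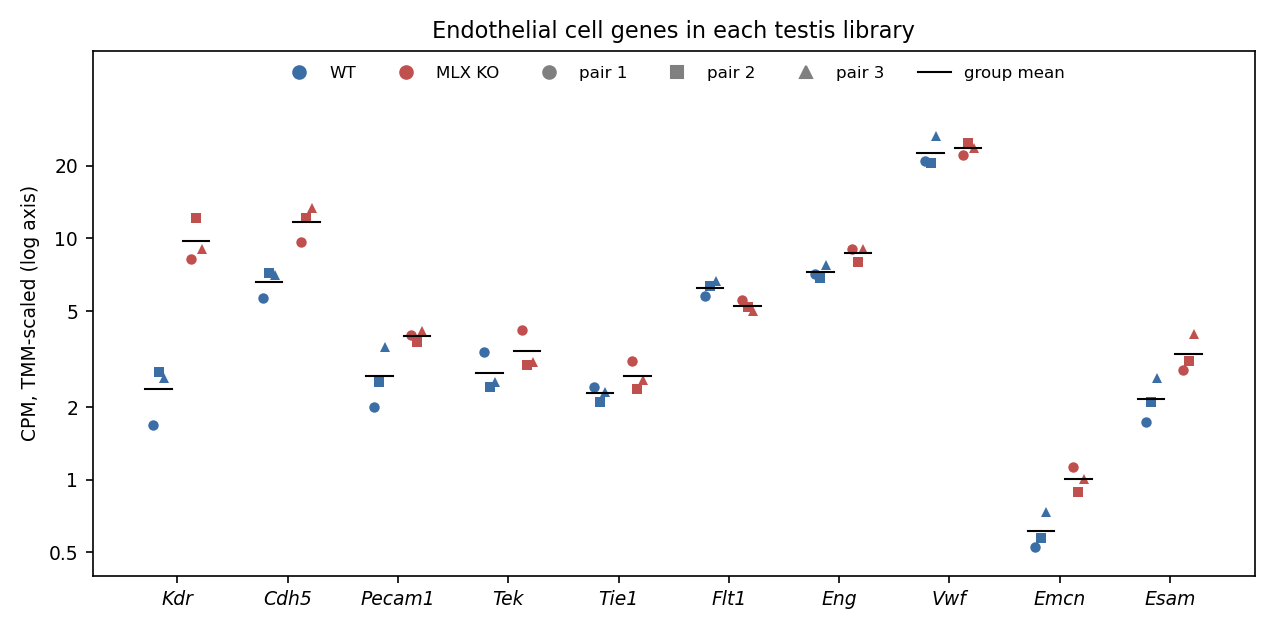
CPM (log axis) of the 10 endothelial cell genes in each library, with WT in blue, MLX KO in red, a symbol for each littermate pair and a line at each group mean (n = 3). *Kdr* shows the widest gap, from 1.69 to 2.8 CPM in WT and from 8.25 to 12.1 in KO, while *Flt1* sits lower in KO than in WT.

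*Kdr* (chromosome 5, from 75932827 to 75979072 of mm10), the receptor through which VEGF-A drives endothelial growth, changed most. WT1, WT2 and WT3 had 32, 44 and 47 reads of it, and KO1, KO2 and KO3 had 160, 218 and 170. The lowest KO library stood far above the highest WT library. In CPM this was 2.38 ± 0.603 in WT and 9.77 ± 2.02 in KO (SD, n = 3). The fitted LFC was 2.05 (4.13-fold, SE 0.21, 95% interval 1.59 to 2.50), with an adjusted p of 3.43e-05 (edgeR quasi-likelihood, Benjamini-Hochberg). It was higher in 3 of 3 pairs, by 2.29, 2.11 and 1.76 on the log2 scale, and its LFC ranked 79 from the top among the 14640 genes.

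*Flt1* (chromosome 5, from 147561604 to 147726438), the other main receptor of VEGF-A, did not follow *Kdr*. It had 109, 100 and 118 counts in the WT libraries and 108, 94 and 94 in the KO libraries. CPM values were 6.25 ± 0.463 in WT and 5.25 ± 0.3 in KO (SD, n = 3), without overlap between groups. The LFC was -0.25 (SE 0.13, 95% interval -0.53 to 0.03) and did not pass the test (adjusted p = 0.136, edgeR quasi-likelihood, Benjamini-Hochberg), although CPM were lower in 3 of 3 pairs. The counts of both genes were also compared within each library, which no scaling between libraries can alter. There were 0.294, 0.44 and 0.398 *Kdr* reads for each *Flt1* read in WT1, WT2 and WT3, and 1.48, 2.32 and 1.81 in KO1, KO2 and KO3. *Flt1* reads outnumbered those of *Kdr* in every WT library and the reverse held in every KO library. The ratio was 4.94-fold higher in KO (2.31 on the log2 scale, exact permutation test over libraries, two-sided p = 0.1, the smallest that 3 against 3 allows).

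The angiopoietin receptor *Tek* (chromosome 4, from 94739086 to 94874976) and its partner *Tie1* (chromosome 4, from 118471191 to 118489849) did not pass the test. *Tek* had 64, 38 and 45 reads in WT and 81, 54 and 58 reads in KO, or 2.78 ± 0.522 and 3.41 ± 0.665 CPM (SD, n = 3). *Tie1* was counted 46, 33 and 41 times in WT and 60, 43 and 49 times in KO, or 2.28 ± 0.166 and 2.69 ± 0.367 CPM (SD, n = 3). Both were higher in the KO member of every pair, yet their groups overlapped, with pair 1 highest for both genes in both genotypes. Their LFC were 0.29 (SE 0.21, 95% interval -0.16 to 0.74) for *Tek* and 0.24 (SE 0.19, 95% interval -0.18 to 0.66) for *Tie1*, with adjusted p of 0.271 and 0.338 (edgeR quasi-likelihood, Benjamini-Hochberg). The intervals leave room for a rise of the size seen in *Esam* and for no change. *Tek* reads per *Tie1* read were 1.39, 1.15 and 1.1 in WT and 1.35, 1.26 and 1.18 in KO, a log2 difference of 0.06 (exact permutation test, two-sided p = 0.7, smallest possible 0.1), and -0.01 without WT replicate 3.

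**Figure D2:**
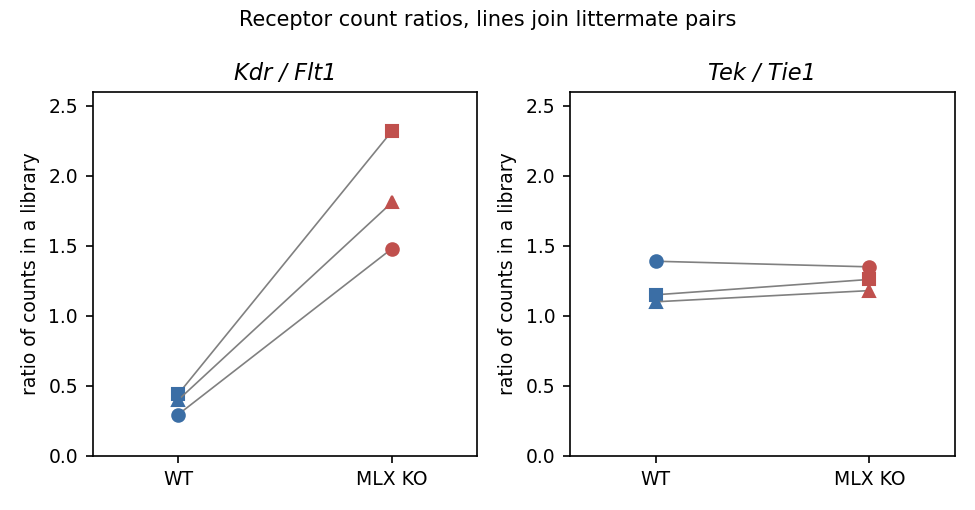
Ratio of read counts within each library, *Kdr* to *Flt1* on the left and *Tek* to *Tie1* on the right, for WT (blue) and MLX KO (red), with lines joining littermates and circles, squares and triangles for pairs 1, 2 and 3. The *Kdr* to *Flt1* ratio was at most 0.44 in WT and at least 1.48 in KO, and the *Tek* to *Tie1* ratio overlapped between genotypes.

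*Eng* (chromosome 2, from 32646595 to 32682669), the co-receptor for BMP9, had 135, 108 and 138 counts in the WT libraries and 176, 145 and 170 in the KO libraries. That was 7.26 ± 0.472 CPM in WT and 8.7 ± 0.589 in KO (SD, n = 3), higher in all KO libraries than in any WT library. The LFC of 0.26 (SE 0.11, 95% interval 0.01 to 0.51) did not pass the adjusted test (adjusted p = 0.0836, edgeR quasi-likelihood, Benjamini-Hochberg), and did under scaling by library size alone (adjusted p = 0.0177). Exons of *Eng* overlap those of *Fpgs* on the opposite strand, and whether the counting used strand is not given in the sources used here, so reads of the pair may be shared.

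The genes of the junctions between endothelial cells were all higher in the KO libraries, with *Cdh5* and *Esam* past the test. *Cdh5* (chromosome 8, from 104101613 to 104144504), which encodes the adhesion molecule of endothelial adherens junctions, had 107, 113 and 125 reads in WT and 188, 219 and 253 reads in KO. Levels were 6.63 ± 0.855 CPM in WT and 11.7 ± 1.88 in KO (SD, n = 3), with no overlap, an LFC of 0.83 (1.78-fold, SE 0.15, 95% interval 0.51 to 1.15, adjusted p = 0.00101, edgeR quasi-likelihood, Benjamini-Hochberg) and gains of 0.78, 0.75 and 0.93 in pairs 1, 2 and 3. The rise of *Cdh5* was thus alike in size in the 3 pairs.

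*Esam* (chromosome 9, from 37528089 to 37538319), an immunoglobulin-like protein of tight junctions and platelets, was counted 33, 33 and 47 times in WT and 55, 56 and 76 times in KO. Its LFC was 0.62 (1.54-fold, SE 0.22, 95% interval 0.14 to 1.10) at an adjusted p of 0.0384 (edgeR quasi-likelihood, Benjamini-Hochberg), and it was higher in 3 of 3 pairs. CPM were 2.16 ± 0.459 in WT and 3.32 ± 0.623 in KO (SD, n = 3), without overlap. This call is the least firm of the 3: it was kept under 8 of 15 alternatives and lost with DESeq2 (adjusted p = 0.109), in a paired DESeq2 fit (0.209), without pair 1 (0.0688), and without WT1 (0.139), WT2 (0.0979), KO2 (0.0606) or KO3 (0.158).

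*Pecam1* (chromosome 11, from 106654213 to 106715281), the adhesion molecule used as a general stain for endothelium, had 38, 40 and 63 counts in the WT libraries and 77, 67 and 78 in the KO libraries. Levels were 2.7 ± 0.786 CPM in WT and 3.94 ± 0.214 in KO (SD, n = 3). WT3, at 3.55 CPM, came close to the lowest KO library at 3.71. The LFC of 0.55 (SE 0.21, 95% interval 0.09 to 1.00) just missed the threshold (adjusted p = 0.0516, edgeR quasi-likelihood, Benjamini-Hochberg). When littermates were paired in the fit it passed in edgeR (adjusted p = 0.03) and not in DESeq2 (0.221), and without WT3 it passed with an LFC of 0.80 (0.0114). In all, *Pecam1* passed under 4 of 15 alternatives. It did not pass in unpaired DESeq2 (adjusted p = 0.13). Nor did it in edgeR without WT1 (adjusted p = 0.191), WT2 (0.134), KO3 (0.125) or pair 1 (0.217). *Pecam1* lies 5.56 Mb from *Mlx* on the same chromosome, and the other 9 genes lie on other chromosomes. Among genes of the other lists, *Ramp2* (0.15 Mb), *Itga2b* (1.36 Mb), *Higd1b* (1.74 Mb) and *Icam2* (5.29 Mb) lie nearer to *Mlx*. Effects of lying near the targeted gene were not tested.

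The remaining endothelial cell genes are *Emcn* and *Vwf*. *Emcn* (chromosome 3, from 137341062 to 137431069), a sialomucin of capillaries and veins, had the fewest reads, 10, 9 and 13 in WT and 22, 16 and 19 in KO. No KO library was as low as any WT library (0.611 ± 0.108 CPM in WT and 1.01 ± 0.125 in KO, SD, n = 3), but at this depth the LFC of 0.72 (SE 0.30, 95% interval 0.07 to 1.37) did not pass (adjusted p = 0.0674, edgeR quasi-likelihood, Benjamini-Hochberg), except under library size alone (0.0322). *Vwf* (chromosome 6, from 125552948 to 125686679), the clotting factor stored by endothelium and platelets, had the most reads, 396, 322 and 474 in WT and 431, 451 and 450 in KO. Its groups overlapped throughout, at 22.7 ± 3.5 CPM in WT and 23.7 ± 1.37 in KO (SD, n = 3). The LFC was 0.06 (SE 0.10, 95% interval -0.17 to 0.29, adjusted p = 0.673, edgeR quasi-likelihood, Benjamini-Hochberg). The upper bound of 0.29 was below the lower bounds for *Cdh5* and *Kdr* in the same fit, but no test compared these genes. Under library size alone the LFC of *Vwf* was 0.20. *Vwf* was higher in KO in 2 of 3 pairs and lower by 0.17 in pair 3, and without WT1 or WT2 its LFC turned to -0.00 or -0.01.

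**Figure D3:**
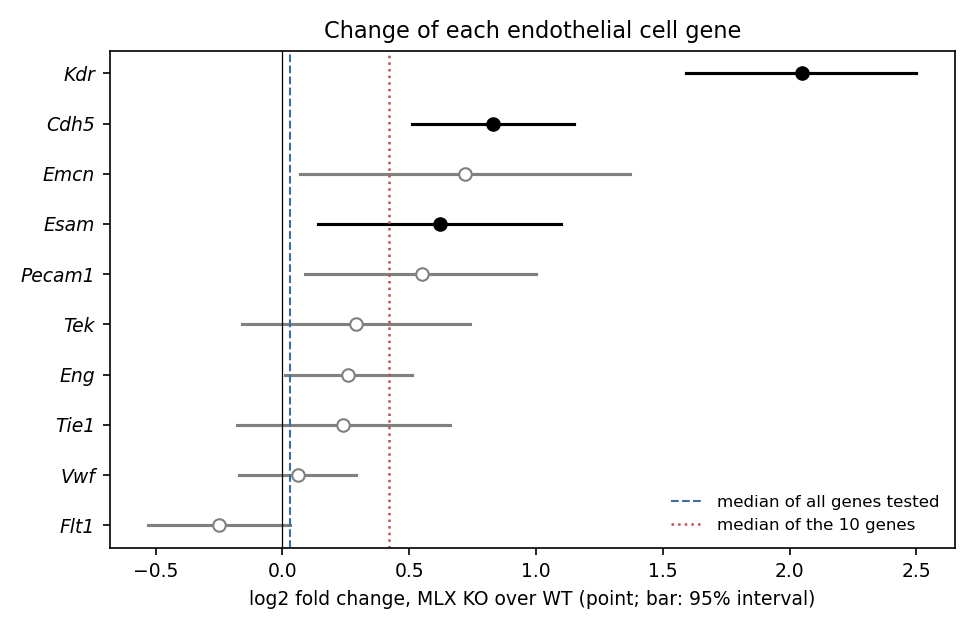
Log2 fold change of each endothelial cell gene, MLX KO over WT, with its 95% interval from edgeR (filled points pass an adjusted p of 0.05, n = 3 per group). The points run from -0.25 for *Flt1* to 2.05 for *Kdr*, with the median of the 10 genes at 0.42 (red dotted line) and that of all genes tested at 0.03 (blue dashed line).

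Levels of different genes were compared as CPM per kilobase of exon. In WT testes the order ran from *Eng* (1.79 ± 0.117, SD, n = 3) through *Cdh5* (1.58 ± 0.203), *Vwf* (1.41 ± 0.218), *Esam* (0.754 ± 0.16), *Tek* (0.589 ± 0.111), *Tie1* (0.463 ± 0.0337), *Flt1* (0.463 ± 0.0343), *Pecam1* (0.433 ± 0.126) and *Kdr* (0.263 ± 0.0668) to *Emcn* (0.113 ± 0.02). Neighbours in this order overlapped over libraries except *Vwf* and *Esam*, *Tek* and *Tie1*, *Pecam1* and *Kdr*, and *Kdr* and *Emcn*. In KO testes *Cdh5* came first, at 2.79 ± 0.447 CPM per kilobase, followed without overlap by *Eng* at 2.15 ± 0.145 and then *Vwf* at 1.47 ± 0.085. *Esam* (1.16 ± 0.217) and *Kdr* (1.08 ± 0.223) came next and overlapped each other, and *Esam* also overlapped *Vwf*. Then came *Tek* (0.724 ± 0.141), *Pecam1* (0.632 ± 0.0343) and *Tie1* (0.547 ± 0.0747), each overlapping its neighbour, and last *Flt1* (0.389 ± 0.0222) and *Emcn* (0.186 ± 0.0231), which stood clear. *Kdr* thus moved from rank 9 to rank 5 and *Flt1* from rank 7 to rank 9.

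The make-up of the summed level also differed between genotypes. *Kdr* supplied 2.58, 4.05 and 3.38% of the summed CPM per kilobase of the 10 genes in WT1, WT2 and WT3, and 8.61, 12 and 8.53% in KO1, KO2 and KO3. The share of *Flt1* was 5.9 ± 0.245% in WT and 3.5 ± 0.368% in KO, that of *Eng* 22.9 ± 1.22% and 19.3 ± 1.66%, and that of *Vwf* 17.9 ± 1.24% and 13.2 ± 0.679% (SD, n = 3). For these 3 genes every KO library lay below every WT library, and the other 6 shares overlapped. Shares within a sum are tied to each other, and no test was run on them.

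Ligands and co-receptors of the same pathways were followed in a list of 12 genes, 10 of which were tested. Of these, 5 rose, 1 fell and 4 did not pass, with a median LFC of 0.50. The counts of this list and of each list below stand beside 24.8% higher and 20.6% lower over all genes tested. *Vegfa*, the ligand of KDR and FLT1, had 60, 51 and 57 reads in WT and 117, 126 and 94 reads in KO (LFC 0.90, SE 0.16, adjusted p = 0.00119, edgeR quasi-likelihood, Benjamini-Hochberg). Its KO libraries all lay above its WT libraries. *Vegfb* (LFC 0.46, adjusted p = 0.0185) and *Pgf* (LFC 0.54, adjusted p = 0.00364), ligands that bind FLT1 and not KDR, rose less by the same test, and *Vegfb* lost its call without WT2 or KO3, in DESeq2 (adjusted p = 0.111) and in its paired fit (adjusted p = 0.246). The call of *Pgf* was lost in the paired DESeq2 fit (adjusted p = 0.0783). *Nrp1*, the neuropilin that presents VEGF-A to KDR, rose from 118, 72 and 63 counts to 275, 227 and 217 (LFC 1.41, SE 0.17, adjusted p = 0.000117). *Nrp2*, which serves lymphatic vessels, had an LFC of 0.08 (SE 0.14), and *Flt4*, the receptor for VEGF-C, of -0.09 (SE 0.09), with overlapping groups for both. *Vegfc* had too few counts to test, at 4 to 5 in WT and 6 to 13 in KO. *Vegfd* was not analysed here.

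*Acvrl1* (ALK1), the receptor that endoglin assists, rose with an LFC of 1.10 (SE 0.17, adjusted p = 0.000405, edgeR quasi-likelihood, Benjamini-Hochberg), from 59, 58 and 49 counts in WT to 131, 106 and 148 in KO, while *Eng* itself did not pass. *Angpt1*, the ligand that activates TEK, had few reads, 4, 8 and 11 in WT and 4, 20 and 17 in KO, and its LFC of 0.72 (SE 0.56) did not pass. *Angpt2*, its antagonist in many settings, had an LFC of 0.39 (SE 0.20, adjusted p = 0.138). *Ptprb* (VE-PTP), the phosphatase that damps TEK, fell, from 148, 124 and 156 counts to 123, 119 and 124, with an LFC of -0.33 (SE 0.11, adjusted p = 0.0347). That call was kept under 5 of 15 alternatives. It was lost with any 1 library left out and under library size alone (LFC -0.19, adjusted p = 0.212). In the paired DESeq2 fit, *Vegfa*, *Nrp1* and *Acvrl1* stayed past the threshold, and the list had 3 genes higher and 0 lower.

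Other genes of endothelial identity gave 8 higher, 0 lower and 8 not past among 16 tested of 20, with a median LFC of 0.55. The 3 largest rises were in *Robo4*, *Icam2* and *Plvap*. *Robo4*, a receptor that steadies the vessel wall against VEGF, changed more than any of the 10 endothelial cell genes. It had 21, 13 and 26 counts in the WT libraries and 141, 161 and 186 in the KO libraries (LFC 2.92, 7.55-fold, SE 0.21, adjusted p = 4.43e-06, edgeR quasi-likelihood, Benjamini-Hochberg), and passed under all 15 alternatives. *Icam2* rested on few reads, 0, 3 and 9 in WT and 18, 11 and 15 in KO (LFC 1.74, SE 0.62, adjusted p = 0.0399), and passed under 6 of 14 alternatives. Its LFC ran from 0.96 without pair 1 to 3.07 without WT3, and the call was lost without WT1, WT2 or any KO library. *Plvap*, the protein of the diaphragms of fenestrated capillaries, had 8, 13 and 7 reads in WT and 29, 21 and 27 reads in KO (LFC 1.34, SE 0.33, adjusted p = 0.00684), but did not pass in the paired DESeq2 fit (adjusted p = 0.0923). By contrast *Egfl7*, *Cd93*, *Rasip1*, *Nos3*, *Ecscr*, *Clec14a*, *S1pr1* and *Ramp2* did not pass, with LFC from -0.29 to 0.75. With DESeq2 the count of higher genes was 5, and 3 (*Robo4*, *Cd34* and *Calcrl*) when pairs were fitted too. *Adgrl4* and *Adgrf5* were not analysed here, and *Procr* and *Gpihbp1* had too few counts.

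Of 12 endothelial transcription factors, 5 rose, 1 fell and 6 did not pass, with a median LFC of 0.30. *Lyl1*, a partner-dependent factor of blood and vessel cells, was counted 12, 9 and 10 times in WT and 21, 23 and 31 times in KO (LFC 1.16, SE 0.29, adjusted p = 0.00753, edgeR quasi-likelihood, Benjamini-Hochberg). The ETS-family genes *Elk3* and *Ets1* had LFC of 0.63 (SE 0.19, adjusted p = 0.0168) and 0.55 (SE 0.20, adjusted p = 0.0411) by the same test. The call of *Elk3* was lost without WT3 or KO2, and that of *Ets1* without any library but WT3 (adjusted p up to 0.145 and 0.248 over the alternatives). *Erg*, an ETS factor at the centre of endothelial identity, did not pass, with 20, 21 and 19 counts in WT and 23, 21 and 21 in KO (LFC 0.01, SE 0.25). *Fli1*, its close relative, had an LFC of 0.61 (SE 0.30) and did not pass. *Gata2* fell with an LFC of -0.25 (SE 0.08, adjusted p = 0.0207), though not under library size alone (LFC -0.11, adjusted p = 0.293) or in the paired DESeq2 fit (adjusted p = 0.125), or without WT1, WT2, KO2 or pair 1. With DESeq2, unpaired or paired, the number higher was 1 (*Epas1*, the hypoxia-responsive factor HIF-2α).

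Among Notch, arterial and venous genes, 6 of 16 rose, 2 fell and 8 did not pass (median LFC 0.27). The largest rises were in *Apln*, a peptide of sprouting vessel tips, from 200, 131 and 123 counts in WT to 385, 581 and 696 in KO (LFC 1.78, SE 0.21, adjusted p = 9.94e-05, edgeR quasi-likelihood, Benjamini-Hochberg), and its receptor *Aplnr*, from 7, 4 and 4 counts to 18, 10 and 12 (LFC 1.29, SE 0.40, adjusted p = 0.0219). The Notch ligand of tip cells *Dll4* rose from 8, 12 and 18 counts to 35, 35 and 23 (LFC 1.18, SE 0.33, adjusted p = 0.0143). *Aplnr* and *Dll4* were lost in the paired DESeq2 fit (adjusted p = 0.26 and 0.107), *Aplnr* also without WT2, WT3 or KO1 and *Dll4* without WT1 or KO2. *Hey1*, a target of Notch signalling, fell (LFC -0.56, SE 0.12, adjusted p = 0.00276), as did the ligand *Jag1* (LFC -0.39, SE 0.08, adjusted p = 0.0025), and both did so under all 15 alternatives. Germ cells and Sertoli cells also use Notch genes, so these levels are of the whole testis.

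Molecules by which endothelium holds leukocytes changed unevenly. *Icam1* rose from 38, 27 and 41 counts to 121, 103 and 131 (LFC 1.64, SE 0.17, adjusted p = 3.77e-05, edgeR quasi-likelihood, Benjamini-Hochberg), *Vcam1* had an LFC of 1.54 (SE 0.12, adjusted p = 7.98e-06) and *Jam2* of 1.12 (SE 0.09, adjusted p = 7.03e-06). These 3 of the 5 genes tested kept their calls under all 15 alternatives. The selectins *Sele* (LFC 0.07, SE 0.20) and *Selp* (LFC -0.20, SE 0.32), which activated endothelium makes, did not pass. *Icam1*, *Vcam1* and *Jam2* are made by other testis cells too, and *Ackr1* was not analysed here. Over the 5 endothelial lists beside the 10 genes, 27 of 59 genes tested were higher, 4 were lower and 28 did not pass, beside 24.8% higher and 20.6% lower over all genes, with a median LFC of 0.46. The number higher was 19 with DESeq2, 14 in its paired fit, and 20 to 27 with 1 library left out. Over all genes tested, the share higher in these settings was 19.4%, 15.4% and 20 to 27%.

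**Figure D4:**
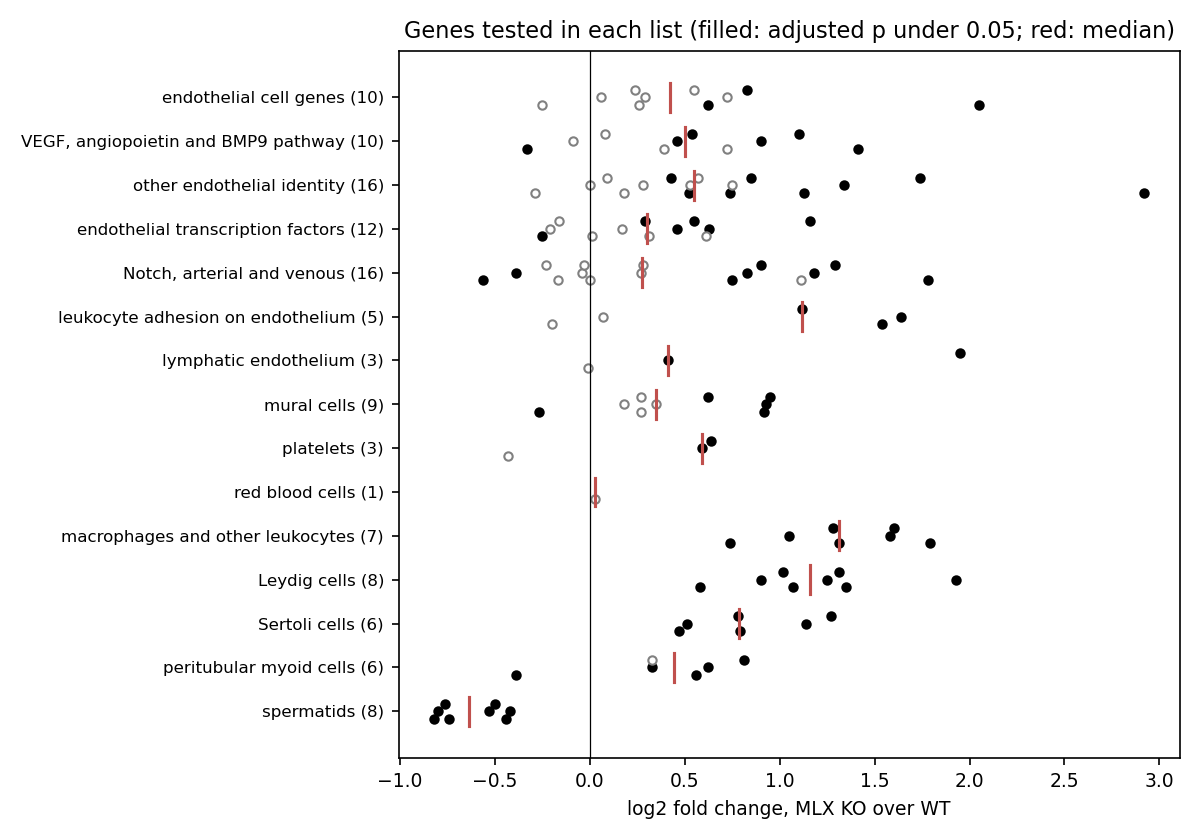
Log2 fold change, MLX KO over WT, of each gene tested in each list (number tested in brackets), filled where the adjusted p from edgeR was under 0.05, with a red bar at the list's median. The endothelial lists span rises and falls with medians from 0.27 to 1.12, while all Leydig, Sertoli and macrophage genes tested lie to the right of 0 and all spermatid genes to the left.

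Markers of other cells moved between the same libraries, and their part in the endothelial results was not tested. Of the markers of macrophages and other leukocytes, 7 of 7 tested rose (median LFC 1.31), and their summed level went from between 35.5 and 41.1 CPM in WT to between 102 and 110 in KO. *Lyz2*, *C1qa* and *Cd163* rose most, with LFC of 1.79, 1.60 and 1.58. *Cx3cr1* alone among them overlapped between groups, and its call was lost without any library but KO3 (adjusted p up to 0.197). Leydig cell markers, from cells that share the interstitial space with the vessels, rose in 8 of 8 (median LFC 1.16), summing to between 865 and 885 CPM in WT and between 1859 and 2446 in KO, led by *Insl3* (LFC 1.93), *Cyp11a1* (1.35) and *Hsd17b3* (1.31). Sertoli cell markers rose in 6 of 6 (median LFC 0.79, *Amh*, *Fshr* and *Cldn11* most), from between 142 and 145 CPM to between 214 and 245. All 8 spermatid markers fell (median LFC -0.64, *Tnp2*, *Prm1* and *Tnp1* most). Against these, the median of 0.42 for the 10 endothelial cell genes was near the 0.44 of peritubular myoid cells. Of their 6 markers 4 rose (*Smtn*, *Tagln*, *Acta2* and *Myh11*) and *Actg2* fell, with sums between 310 and 372 CPM in WT and between 314 and 328 in KO. *Actg2* made up most of these sums, at 267 ± 25.6 CPM in WT and 204 ± 11.7 in KO (SD, n = 3). The sums therefore do not show the rises of the other 4 genes.

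Cells of the vessel wall and of blood were followed as well. Mural cells, the pericytes and smooth muscle that wrap the endothelium, had 4 of 9 markers higher, *Ndufa4l2* lower and a median LFC of 0.35, summing to between 56 and 62.8 CPM in WT and between 64.3 and 71.1 in KO. *Kcnj8* (LFC 0.95), *Pdgfrb* (0.93) and *Abcc9* (0.92) had the largest LFC. *Kcnj8* did not pass in DESeq2 (adjusted p = 0.0631) or in its paired fit (adjusted p = 0.168). The paired DESeq2 fit gave 3 higher (*Pdgfrb*, *Abcc9* and *Des*) and 0 lower, and *Ndufa4l2* also lost its call without WT2, WT3, KO2 or KO3. Platelet markers, which bear on *Vwf*, *Pecam1* and *Esam*, were low, between 3.89 and 4.8 CPM in sum in WT and between 5.77 and 6.09 in KO. *Pf4* (LFC 0.64) and *Itga2b* (0.59) passed among 3 tested, both lost in DESeq2, paired or not, and without most single libraries (adjusted p up to 0.29 and 0.305), while *Gp1ba* did not pass, with 28, 18 and 17 reads in WT against 17, 18 and 15 in KO (LFC -0.43, SE 0.28, adjusted p = 0.23). *Gp9* and *Ppbp* had at most 2 counts in any library. Of red blood cell genes *Hba-a2* had 2 counts in KO1 and 0 elsewhere, and *Alas2*, with an LFC of 0.03, was the only 1 tested. Of markers of lymphatic endothelium, *Pdpn* (LFC 1.95) and *Prox1* (0.41) were higher and *Mmrn1* (-0.01) did not pass. In WT *Prox1* had 271, 248 and 336 counts and *Mmrn1* 11, 12 and 6. Whether the reads of *Pdpn* and *Prox1* came from lymphatic endothelium was not determined. The call of *Prox1* was lost without WT1 or KO3 (adjusted p up to 0.0539), and *Lyve1* had too few counts in most libraries and 45 in KO3. *Ccl21a*, *Adgre1*, *Hba-a1*, *Hbb-bs* and *Hbb-bt* were not analysed here.

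Genes with the most similar pattern were sought among the 13858 other genes with a mean of at least 1 CPM, by the root mean square difference between log2 profiles over the 6 libraries, each centred on its own mean. The mean profile of the 10 endothelial cell genes was -0.40, -0.28 and -0.10 in WT1, WT2 and WT3 and 0.27, 0.23 and 0.29 in KO1, KO2 and KO3. The nearest genes were *Dmrtc1b*, *Tom1l2*, *Asl*, *Fstl3* and *Ehmt1*, at distances of 0.029, 0.0374, 0.0403, 0.044 and 0.0444. The endothelial cell genes themselves lay farther from their own mean, from 0.11 for *Emcn* through 0.39 for *Flt1* to 0.78 for *Kdr*. The nearest genes were picked as the closest of 13858, so their smaller distances follow from the picking. The mean profile describes *Kdr* and *Flt1* poorly. *Dmrtc1b* has close copies in the genome, and its counts could be split among them.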

How the data were processed

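Testes of 3 WT and 3 MLX KO males were profiled by paired-end RNA-seq. The authors deposited raw counts of reads for each gene symbol in each library. Per the labels, bcl2fastq 1.8.4, Bowtie2, TopHat, DESeq2 and bedtools were among the tools of the series, with build mm10. The counting tool, gene annotation and strandedness are not given in the sources used here. The table's 6 columns of the authors' own comparison (mean signal, fold change, its error, test score, p-value and adjusted p-value) were not used, and neither were the 16 ChIP-Seq samples. Of 17933 rows, 2 repeated another.

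Genes were tested with edgeR 4.0.16 in R 4.3.3 (low-count filter at a minimum of 10, TMM, quasi-likelihood test of genotype without further terms, two-sided) and Benjamini-Hochberg adjustment over 14640 genes, at a threshold of 0.05. TMM factors were 0.943 to 0.961 in WT and 1.02 to 1.07 in KO. Ratios used an exact permutation test. Exon lengths came from GENCODE and coordinates and promoters from RefSeq (GRCm38.p6). The principal components used 500 genes.

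The endothelial genes and the 14 other lists were chosen with earlier results of these data known. From each list the text names the genes past the threshold with the 3 largest increases and 3 largest decreases, and every tested gene of the VEGF, angiopoietin and BMP9 list. The 5 most alike genes, *Mlx* and the 10 endothelial genes are also named. *Erg*, *Fli1*, *Epas1*, *Cd34*, *Calcrl*, *Des*, genes named as not past, and markers at low counts were named after their values were seen.

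Sample titles call the libraries paired and the study's methods describe littermates, so numbers pair samples. Deviations from group means had correlations of 0.145, 0.0363 and 0.121 within pairs 1, 2 and 3 and at most 0.033 across pairs. Libraries of a genotype differed by more than counting noise gives (2.66 to 7.92 in chi-square over degrees of freedom), so none was counted as a duplicate. The alternatives were DESeq2 1.42.0, its size factors in edgeR, library size alone, upper-quartile scaling, no filter, a minimum of 1 CPM in 3 libraries, fits with a replicate block for the pairs (edgeR, DESeq2), each library left out, and pair 1 left out, the last chosen after seeing the data. On simulated counts for this comparison, edgeR recovered 193 of 200 changed genes among 14674 and called 13 others. The data themselves gave far more calls, 3634 higher and 3015 lower of 14640. Recovery at the LFC and counts of the endothelial genes was not tested separately.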

Additional observations from a re-analysis of the deposited data

How the results depend on the processing

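*Kdr* and *Cdh5* kept their direction and their call under all 15 alternatives, with LFC from 1.84 to 2.19 and from 0.72 to 0.97. *Flt1* was negative (-0.36 to -0.11) and *Tek* (0.12 to 0.46) and *Tie1* (0.13 to 0.37) positive under all 15, with 0 calls. With 1 library left out *Vwf* ran from -0.01 (without WT2; -0.00 without WT1) to 0.19. The log2 ratio of *Tek* to *Tie1* ran from -0.01 to 0.17 with 1 library left out, and that of *Kdr* to *Flt1* from 2.13 to 2.46.

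The number of endothelial genes higher was 6 under library size alone, where 5343 of all genes (36.5%) were higher and 1268 lower and the median LFC of all genes was 0.16, against 0.03. It was 2 with DESeq2, 2 to 4 with 1 library left out, 2 without pair 1, and 4 with a minimum of 1 CPM, which left *Emcn* untested. Of all genes, 19.4%, 20 to 27%, 25% and 25.6% were higher in these settings. With the pair as a replicate block the number of endothelial genes higher was 4 in edgeR, beside 25.5% of all genes. In DESeq2 with the block it was 2, where 2249 of all genes (15.4%) were higher and 2355 lower. Set against the same tool without it, the replicate block changed the call of *Pecam1* in edgeR and of 0 of the 10 genes in DESeq2, where *Esam* did not pass either way. The cause of these shifts was not tested.

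Of 74 genes past the threshold in the other lists, 53 stayed past it under every alternative and 0 changed direction. The same share among all genes past the threshold is not given here. Those kept were 3 of 6 in the VEGF, angiopoietin and BMP9 list, 3 of 8 of endothelial identity and 1 of 6 transcription factors. In the Notch list 6 of 8 were kept, and 3 of 3 of leukocyte adhesion. All 8 Leydig, 6 Sertoli, 5 peritubular myoid and 8 spermatid genes were kept. So were 6 of 7 genes of macrophages and other leukocytes, 3 of 5 mural, 1 of 2 lymphatic and 0 of 2 platelet genes. Counts under 50 reads in some or all libraries, among them those of *Kdr*, *Emcn*, *Esam*, *Tie1*, *Pecam1* and *Tek*, limit the precision, and p-values measure only the spread between 3 males a genotype.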
